A study of Homo sapiens with 12 samples.

Results

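The pyruvate dehydrogenase kinases PDK1, PDK2, PDK3 and PDK4, the pyruvate dehydrogenase phosphatases PDP1 and PDP2, and the phosphatase regulatory subunit PDPR decide by reversible phosphorylation how much pyruvate enters the mitochondrial citric acid cycle. The 7 genes were chosen by name as a family, after earlier results of these data had shown PDK4 higher with ETX. Every probe set annotated with 1 of these symbols was taken. The symbols of 6 of the 7 members had probe sets, 18 in all, among 19775 genes with a probe set of their own. PDP2 was not analysed here. Because the size of the PDK4 difference led to the choice of the family, PDK4 is described by its values with no test, and the other 5 measured members were tested.

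The cells were MDA231, the widely used human breast cancer line MDA-MB-231, which is triple-negative, and total RNA was measured on 12 single-colour Affymetrix arrays. The 4 groups had 3 arrays each. The scramble group carried a non-targeting hairpin, and the scramble + ETX group was the same kind of cell treated with ETX. The labels do not spell ETX out, and it is taken here to be etomoxir, which blocks carnitine palmitoyltransferase 1. The shCPT-1 and shCPT-2 groups carried pGIPZ lentiviral hairpins against CPT1 and CPT2, the outer and inner membrane enzymes that carry long-chain fatty acids into mitochondria for oxidation. All 4 groups were hairpin-bearing cells of 1 line, the CPT1 isoform is not given, and no source used here gives the dose and time of ETX on the arrayed cells, or the number of hairpins or clones behind each knockdown. Nothing in the labels makes the 3 arrays of a group separate cultures, so the p-values below measure the spread between arrays, which may be technical.

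The kinases phosphorylate the E1 alpha subunit of the pyruvate dehydrogenase complex and switch the complex off. The phosphatases remove that phosphate and switch it on again, and PDPR lowers the activity of the phosphatase it binds. PDK4 is the member best known to be induced by fasting and fatty acids, through PPAR and FOXO transcription factors and the glucocorticoid receptor. PDK1 and PDK3 are known targets of the hypoxia factor HIF-1, and PDK2 is the broadly expressed kinase.

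The arrays were alike in overall signal, with median intensities between 74.9 and 77.2, which is log2 6.23 to 6.27. Pearson's r between arrays over all probe sets was 0.9945 to 0.9989 within groups and at most 0.9913 between groups. The targeted genes followed the labels. CPT1A, the CPT1 isoform followed here, was at 8.11, 8.10 and 8.34 in shCPT-1 against 9.64, 9.84 and 9.86 in scramble, and CPT2 was at 6.61, 6.22 and 6.39 in shCPT-2 against 7.46, 7.31 and 7.46. All 6 of the mesenchymal markers fixed for this cell line (VIM, CD44, AXL, CAV1, MSN and ZEB1) exceeded the array median on every array. Of 6 genes listed as low or absent in it, PGR and CDH1 were under the median on every array, while ESR1, ERBB2, GATA3 and EPCAM were above it. Of 14 markers of blood, vessel, stromal and luminal cells, PTPRC, CD14, CDH5, VWF, COL1A2, LUM and TFF1 were under the median on every array and DCN on all but 2. CD3E, PECAM1, COL1A1, KRT18, KRT8 and ELF3 were above it on every array, and the part of other cells in the results was not tested. The actin control probe sets give a sign of RNA integrity, the excess of 3′ over 5′ signal, which was 2.07 ± 0.27 (SD, n = 3) on the log2 scale in scramble, 1.75 ± 0.06 in scramble + ETX, 1.73 ± 0.23 in shCPT-1 and 1.68 ± 0.23 in shCPT-2. Its part in the results below was not tested beyond the fits that carry it as a covariate, and beside each difference given below as a rise or fall it is said where that fit ended the call or moved the value by over 1.5 times.

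PDK4 stood apart with ETX. Log2 intensities of its brightest probe set, 225207_at, were 5.06, 4.87 and 5.15 in scramble and 8.75, 9.16 and 8.66 in scramble + ETX. In shCPT-1 the same probe set read 5.17, 5.59 and 5.37, and in shCPT-2 it read 3.98, 4.62 and 4.22. The 3 ETX arrays lay far above the other 9, every shCPT-1 array lay above every scramble array and every shCPT-2 array lay below them. The ETX mean of 8.86 ± 0.26 (SD, n = 3) exceeded the scramble mean of 5.02 ± 0.14 by 3.83 ± 0.17 (SE) on the log2 scale, which is the difference that led to the choice of the family. shCPT-1 was 0.36 above scramble and shCPT-2 was 0.75 below it. All 9 values outside ETX lie under the median of their arrays, so the probe set passed the filter on low values through the ETX arrays alone. The sizes of all these differences, that with ETX included, are therefore uncertain, and no fold is given.

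The ETX difference in PDK4 rested on 1 of its 3 probe sets. Probe set 205960_at read 5.02, 5.13 and 5.18 in scramble, 5.20, 5.34 and 5.36 with ETX, 5.10, 5.16 and 5.04 in shCPT-1 and 5.00, 5.15 and 4.94 in shCPT-2. Probe set 1562321_at read 3.82, 3.87 and 3.73 in scramble, 4.10, 4.01 and 4.16 with ETX, 3.76, 3.50 and 3.69 in shCPT-1 and 3.60, 3.63 and 3.78 in shCPT-2. Both were under the median on all 12 arrays. In both, the 3 ETX arrays were above the 3 scramble arrays, by 0.19 and 0.28 on the log2 scale, far less than in 225207_at.

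**Figure D1:**
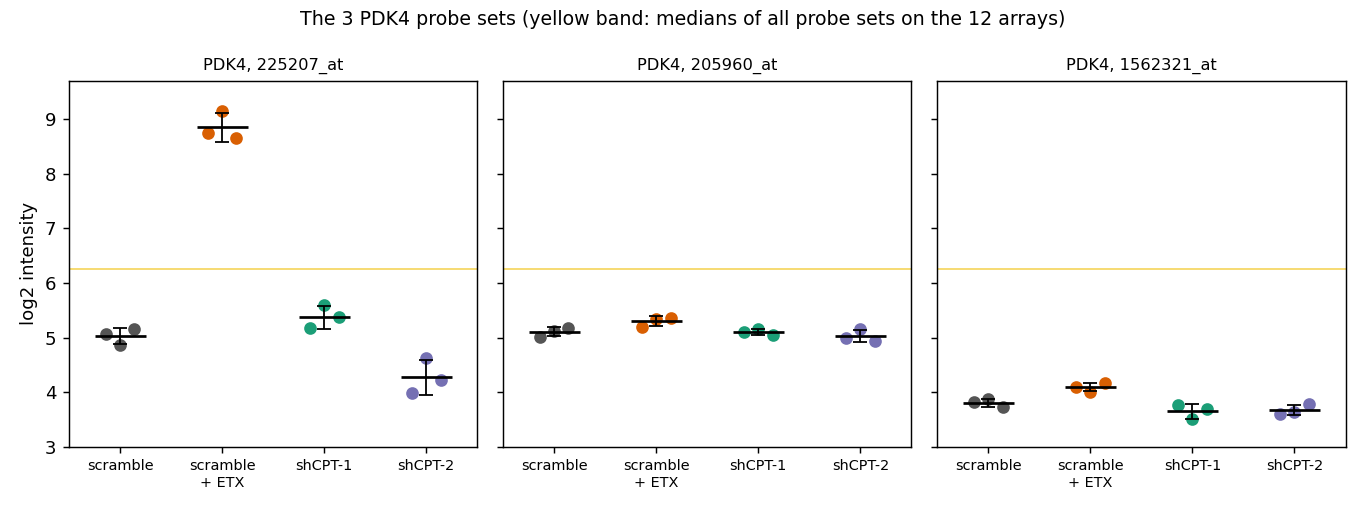
Log2 intensity of the 3 PDK4 probe sets on each of the 12 arrays by group, with lines for group means, bars for SD (n = 3) and a yellow band for the range of array medians, log2 6.23 to 6.27. In 225207_at the ETX arrays sit between 8.66 and 9.16 and clear the band, while the other 2 probe sets stay under it in every group.

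PDK1, the kinase best known as a HIF-1 target, differed between all 4 groups. Its brightest probe set, 226452_at, read 8.55, 8.64 and 8.57 in scramble, 8.87, 8.67 and 8.89 with ETX, 9.06, 9.06 and 9.04 in shCPT-1, and 8.38, 8.21 and 8.28 in shCPT-2. No group overlapped another, shCPT-1 being highest, then ETX, then scramble, then shCPT-2. Against scramble PDK1 rose by 0.47 ± 0.06 (SE) in shCPT-1 (limma, Benjamini-Hochberg adjusted p = 8.42e-05) and fell by 0.30 ± 0.06 in shCPT-2 (adjusted p = 0.00195). The rise with ETX was smaller, 0.23 ± 0.06 (adjusted p = 0.0129), and the call ended without the first ETX array (adjusted p = 0.0560), and with the actin signal as a covariate (adjusted p = 0.0567).

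Of the other PDK1 probe sets, 239798_at was at 6.34, 6.37 and 6.14 in scramble, 6.31, 6.19 and 5.75 with ETX, 6.72, 6.61 and 6.75 in shCPT-1 and 5.80, 5.72 and 5.65 in shCPT-2. It was 0.40 higher in shCPT-1 (adjusted p = 0.0202) and lower in shCPT-2 (difference -0.56, adjusted p = 0.00256), but with ETX the difference was -0.20 (adjusted p = 0.203). This probe set exceeded the median on 6 of 12 arrays and on none of shCPT-2, so the size of that fall is uncertain. The third, 206686_at, read 7.02, 7.16 and 7.17 in scramble, 7.17, 7.32 and 7.02 with ETX, 7.41, 7.38 and 7.21 in shCPT-1 and 7.02, 6.94 and 6.88 in shCPT-2, and it passed the test in none of the comparisons against scramble, with differences of 0.05, 0.22 and -0.17. The ETX call of PDK1 therefore holds for 1 of 3 probe sets.

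PDK3, also a hypoxia-responsive kinase, was lower in shCPT-2. Probe set 228959_at read 8.91, 9.06 and 9.02 in scramble, 8.93, 8.98 and 8.89 with ETX, 9.02, 8.99 and 9.02 in shCPT-1 and 8.48, 8.46 and 8.55 in shCPT-2. The 3 shCPT-2 arrays lay below all 9 others. Scramble overlapped both ETX and shCPT-1, while the shCPT-1 arrays lay just above the ETX arrays. PDK3 fell by 0.50 ± 0.05 (SE) in shCPT-2 (limma, adjusted p = 4.94e-06), while the ETX difference was -0.07 (adjusted p = 0.309) and the shCPT-1 difference 0.01 (adjusted p = 0.868).

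A second PDK3 probe set, 230085_at, fell by 0.50 as well (adjusted p = 0.00016), from 7.31, 7.41 and 7.25 to 6.74, 6.85 and 6.87. Probe sets 206348_s_at and 221957_at, which lie near the array median, gave -0.01 each (adjusted p = 0.954 and 0.961), so 2 of the 4 kept probe sets of PDK3 carried the fall. The fifth, 206347_at, was too dim to be kept.

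PDK2 also fell in shCPT-2. Probe set 202590_s_at read 7.68, 7.59 and 7.63 in scramble, 7.73, 7.76 and 7.79 with ETX, 7.69, 7.51 and 7.61 in shCPT-1 and 7.36, 7.45 and 7.33 in shCPT-2. The ETX arrays were all above scramble and the shCPT-2 arrays all below, while shCPT-1 overlapped scramble. The fall in shCPT-2 was 0.26 ± 0.05 (SE; limma, adjusted p = 0.00193). Probe set 213724_s_at, which also lies near the array median, fell by 0.30 (adjusted p = 0.0156). The ETX difference of 0.13 did not pass the test (adjusted p = 0.0829), nor did the shCPT-1 difference of -0.03 (adjusted p = 0.679).

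Both PDK2 probe sets have the suffix that marks possible cross-hybridisation, so no PDK2 probe set is left when such probe sets are taken out.

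The 250 bases upstream of 1 RefSeq start (GRCh38.p14) are given here for the 3 kinases that fell in shCPT-2, for PDPR, the regulatory subunit that rose there, and for PDK4, which stood apart with ETX, since targets of HIF-1 and PPAR are among the lists described further on. Capitals mark ACGTG or GCGTG, cores of hypoxia response elements, or AGGTCA, the half-site of nuclear receptors, on either strand.
PDK1 (chr2:172555840-172556089, plus strand): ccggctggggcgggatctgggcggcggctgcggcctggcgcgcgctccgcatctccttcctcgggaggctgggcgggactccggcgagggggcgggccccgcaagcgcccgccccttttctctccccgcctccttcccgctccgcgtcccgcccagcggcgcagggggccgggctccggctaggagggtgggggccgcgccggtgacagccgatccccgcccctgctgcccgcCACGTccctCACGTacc
PDK2 (chr17:50095101-50095350, plus strand): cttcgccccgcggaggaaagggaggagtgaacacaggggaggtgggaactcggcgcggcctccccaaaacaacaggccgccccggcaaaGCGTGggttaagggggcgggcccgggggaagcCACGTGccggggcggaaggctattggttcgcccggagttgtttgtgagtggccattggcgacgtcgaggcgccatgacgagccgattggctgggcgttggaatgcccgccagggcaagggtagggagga
PDK3 (chrX:24465036-24465285, plus strand): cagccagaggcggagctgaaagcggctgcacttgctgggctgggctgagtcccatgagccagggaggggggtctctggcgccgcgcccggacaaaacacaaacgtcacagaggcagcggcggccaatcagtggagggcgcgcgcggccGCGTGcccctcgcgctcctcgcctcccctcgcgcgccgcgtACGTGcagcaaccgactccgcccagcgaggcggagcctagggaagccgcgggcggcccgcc
PDK4 (chr7:95596517-95596766, minus strand): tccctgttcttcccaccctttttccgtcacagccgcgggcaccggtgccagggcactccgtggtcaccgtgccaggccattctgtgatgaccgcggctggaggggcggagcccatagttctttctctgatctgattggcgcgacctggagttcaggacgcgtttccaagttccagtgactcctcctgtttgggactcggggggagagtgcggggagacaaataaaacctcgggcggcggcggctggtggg
PDPR (chr16:70114082-70114331, plus strand): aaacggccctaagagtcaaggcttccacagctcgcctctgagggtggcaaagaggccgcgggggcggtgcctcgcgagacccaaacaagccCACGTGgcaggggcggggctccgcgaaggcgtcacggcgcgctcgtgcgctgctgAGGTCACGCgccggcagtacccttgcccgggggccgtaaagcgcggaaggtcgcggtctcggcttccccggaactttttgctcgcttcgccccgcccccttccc
The PDK1 window held ACGTG 2 times on the minus strand, 17 to 13 and 8 to 4 bases before the start. The PDK2 window held the palindrome CACGTG, which carries ACGTG on both strands, 129 to 124 bases before the start, and 1 GCGTG. The PDK3 window held 1 ACGTG, 61 to 57 bases before the start, and 1 GCGTG, 102 to 98 bases before it. The PDK4 window held none of the 3 motifs. The PDPR window held CACGTG 159 to 154 bases before the start, 1 GCGTG and 1 AGGTCA, which overlap, so ACGTG was found upstream of the member that rose as well as of the 3 that fell. Of 35116 windows of this length, 18.5% held ACGTG, 32.2% GCGTG, 12.1% AGGTCA and 6.34% CACGTG. The windows of the other annotated starts of PDK1, PDK2 and PDPR held no ACGTG, so the starts printed for these genes are those that held it. The shares above are for single windows of any base content, while the printed windows were 62.8% to 79.6% G or C. Whether ACGTG is more frequent upstream of these genes than of others was therefore not tested. The starts of PDP1 were not read. These are matches of letters only, and binding of a factor was not measured.

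PDP1, the catalytic phosphatase, was higher in shCPT-1. Probe set 222572_at read 9.99, 10.00 and 10.18 in scramble, 10.00, 9.94 and 9.97 with ETX, 10.36, 10.28 and 10.31 in shCPT-1 and 10.03, 10.00 and 9.87 in shCPT-2. The 3 shCPT-1 arrays lay above the other 9. PDP1 rose by 0.26 ± 0.06 (SE) in shCPT-1 (limma, adjusted p = 0.00437), and the differences of -0.09 with ETX (adjusted p = 0.280) and -0.09 in shCPT-2 (adjusted p = 0.251) did not pass. The dimmer 218273_s_at gave 0.11 in shCPT-1 (adjusted p = 0.522), so the call holds for 1 of 2 probe sets.

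PDPR, the regulatory subunit, was the 1 measured member that rose in shCPT-2. Probe set 224904_at read 9.40, 9.31 and 9.27 in scramble, 9.27, 9.22 and 9.26 with ETX, 9.26, 9.45 and 9.46 in shCPT-1 and 9.62, 9.69 and 9.65 in shCPT-2. The shCPT-2 arrays lay above all 9 others. The rise was 0.32 ± 0.06 (SE; limma, adjusted p = 0.000616), against -0.07 with ETX (adjusted p = 0.333) and 0.06 in shCPT-1 (adjusted p = 0.422). Probe set 224902_at was higher on every shCPT-2 array than in scramble, by 0.15, without passing (adjusted p = 0.0727), and 220236_at was too dim to be kept. PDPR has a near-identical pseudogene copy, PDPR2P, so its signal is uncertain.

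**Figure D2:**
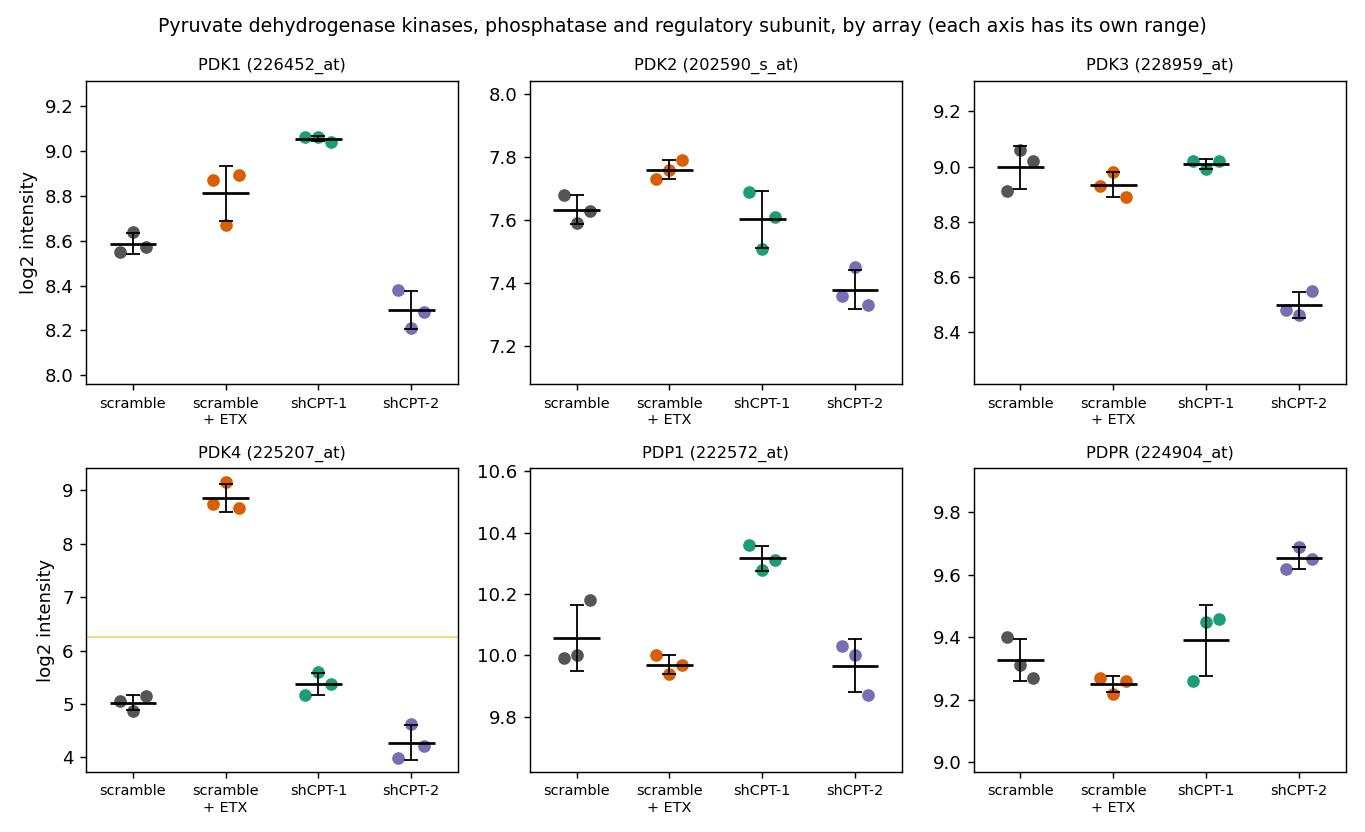
Log2 intensity of the brightest kept probe set of each measured member on each of the 12 arrays by group, with lines for group means and bars for SD (n = 3). PDK1 separates all 4 groups, PDK2 and PDK3 are lowest and PDPR highest in shCPT-2, PDP1 is highest in shCPT-1 and PDK4 is highest with ETX.

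Counted over the 5 tested members, ETX raised 1 (PDK1) and lowered none, where 21.9% of all tested genes were called higher and 19.4% lower. shCPT-1 raised 2 (PDK1 and PDP1) and lowered none, where 23.1% were called higher and 18.0% lower. shCPT-2 raised 1 (PDPR) and lowered 3 (PDK1, PDK2 and PDK3), where 25.6% were called higher and 20.5% lower. Of the 13 kept probe sets of these members, 1 was called with ETX, 3 in shCPT-1 and 7 in shCPT-2, where 35.8%, 35.1% and 40.6% of all kept probe sets were called. By direction, the 2 of 5 raised in shCPT-1 and the 3 of 5 lowered in shCPT-2 are above the shares of all genes, and the other gene counts are not. The shCPT-2 count of 4 of 5 in both directions together is also above the shares. With 5 members such counts are coarse, and their excess was not tested. The 3 comparisons share the scramble arrays.

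Compared directly, shCPT-2 and shCPT-1 differed in all 5 tested members, PDPR higher and PDK1, PDK2, PDK3 and PDP1 lower, with 35.5% of all genes called. PDK1 differed by -0.77 (limma, adjusted p = 2.15e-06), PDK3 by -0.51 (adjusted p = 7.53e-06), PDP1 by -0.35 (adjusted p = 0.0007), PDK2 by -0.22 (adjusted p = 0.00618) and PDPR by 0.26 (adjusted p = 0.00381). PDK1 thus lay above scramble in one knockdown and below it in the other. PDK4 read 1.11 lower in shCPT-2 than in shCPT-1.

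Against ETX, shCPT-2 was called in 4 of 5 members, PDPR higher and PDK1, PDK2 and PDK3 lower, with 45.8% of all genes called. PDK1 differed by -0.52, PDK3 by -0.44, PDK2 by -0.38 and PDPR by 0.40, and PDP1 by 0.00 (adjusted p = 0.965). shCPT-1 was called in 3 of 5 against ETX, with 42.7% of all genes called: PDK1 by 0.24 (adjusted p = 0.00734) and PDP1 by 0.34 (adjusted p = 0.000549) higher, and PDK2 by -0.16 (adjusted p = 0.0339) lower. The PDK2 call ended under several other settings, such as the fit with no filter on low values (adjusted p = 0.0642).

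**Figure D3:**
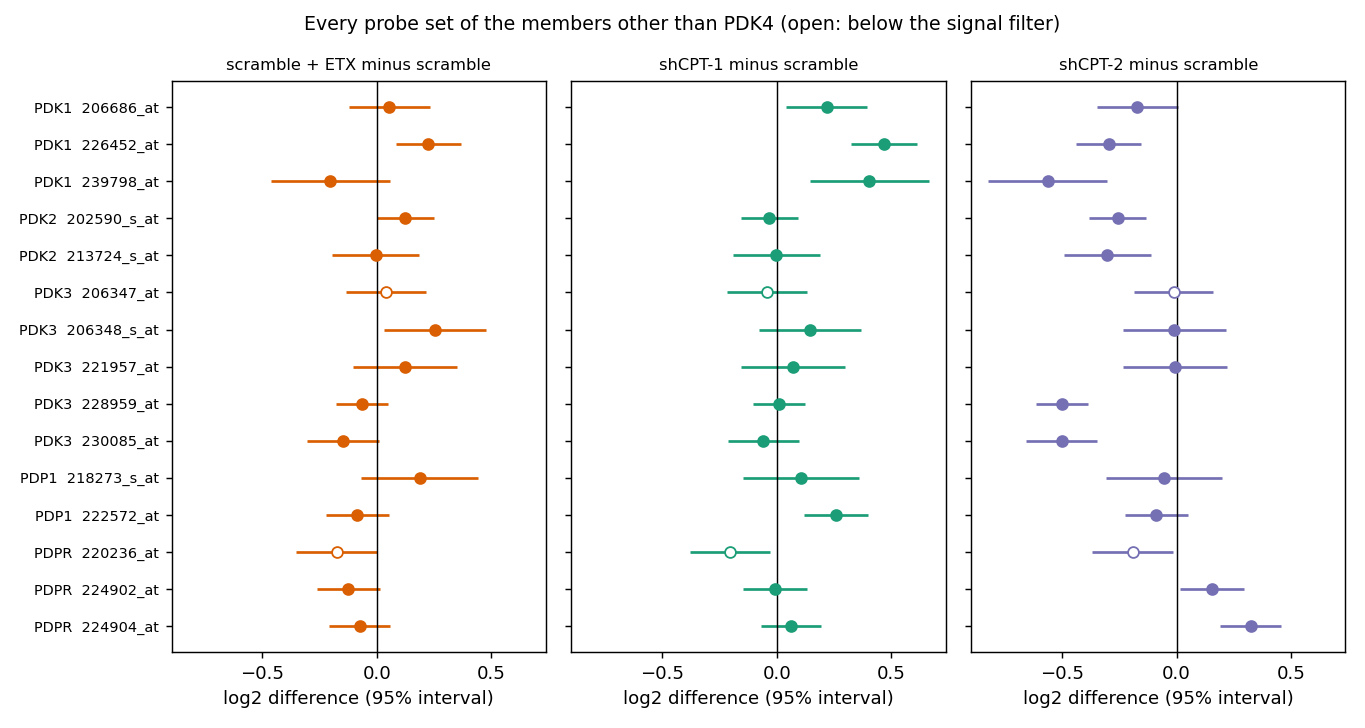
Log2 difference from scramble of every probe set of the measured members other than PDK4, with 95% intervals, for ETX, shCPT-1 and shCPT-2, open points being probe sets under the filter on low values. The 3 PDK1 probe sets spread from -0.20 to 0.23 with ETX, and in shCPT-2 2 PDK3 probe sets lie at -0.50 and 2 at -0.01.

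Of the 5 measured subunit genes of the complex that the family regulates, ETX raised 2 and lowered 1, shCPT-1 lowered 2, and shCPT-2 raised 1 and lowered 2. As shares these were 40.0% higher and 20.0% lower with ETX, 0% and 40.0% in shCPT-1, and 20.0% and 40.0% in shCPT-2. The shares of all genes were 21.9% higher and 19.4% lower with ETX, 23.1% and 18.0% in shCPT-1, and 25.6% and 20.5% in shCPT-2. With 5 genes, so few calls cannot tell the list apart from all genes. PDHA1, which encodes the E1 alpha subunit that the kinases phosphorylate, was at 10.93, 10.89 and 10.89 in scramble and 10.62, 10.54 and 10.71 with ETX. It fell by 0.27 with ETX (limma, adjusted p = 0.00171), and a second probe set, 1555864_s_at, by 0.31, while 200979_at gave -0.01. PDHA1 differences of -0.06 in shCPT-1 and -0.07 in shCPT-2 did not pass for its brightest probe set. In shCPT-1 the 1555864_s_at difference of -0.16 did pass (limma, adjusted p = 0.0379), while 200979_at gave 0.09 (adjusted p = 0.321).

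DLAT, the E2 acetyltransferase, fell by 0.29 in shCPT-1 (limma, adjusted p = 0.00558) and by 0.31 in shCPT-2 (adjusted p = 0.00294). Of its 3 kept probe sets, 2 passed in each knockdown. The other, 211150_s_at, gave -0.18 in shCPT-1 (adjusted p = 0.0729) and -0.16 in shCPT-2 (adjusted p = 0.101). With ETX 211150_s_at gave 0.29 (adjusted p = 0.00939), while the brightest DLAT probe set did not pass (0.18, adjusted p = 0.0541). PDHB, the E1 beta subunit, fell by 0.34 in shCPT-2 (adjusted p = 0.00025) and by 0.15 in shCPT-1 (adjusted p = 0.0399), the latter call ending when any of 8 arrays was left out. A second PDHB probe set, 208911_s_at, gave -0.22 in shCPT-2 (adjusted p = 0.0085) and -0.04 in shCPT-1 (adjusted p = 0.639). PDHX, which binds E3 to the complex, rose by 0.19 in shCPT-2 (adjusted p = 0.00592) and by 0.15 with ETX (adjusted p = 0.026, 0.0749 with the actin covariate). DLD, the E3 subunit shared with other dehydrogenases, rose by 0.46 with ETX (adjusted p = 0.0192), and that call ended without the first or second scramble array and with the actin covariate (adjusted p = 0.111). A second DLD probe set, 230426_at, gave -0.15 with ETX.

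Of 12 measured genes of pyruvate entry and use, shCPT-2 lowered 7 (58.3%, against 20.5% of all genes) and raised 2. ETX lowered 3 and raised 3, and shCPT-1 lowered 3 and raised 2, both near the shares of all genes. The median difference in shCPT-2 was -0.16, where that of all genes was 0.00. MPC1, a subunit of the mitochondrial pyruvate carrier, fell by 0.48 in shCPT-1 (limma, adjusted p = 2.21e-06) and by 0.23 in shCPT-2 (adjusted p = 0.000579). PKM, the glycolytic enzyme that makes pyruvate, fell by 0.35 in shCPT-2 (adjusted p = 4.76e-05), and its ETX difference of -0.17 (adjusted p = 0.0118) ended with the actin covariate (adjusted p = 0.0507). LDHB, a lactate dehydrogenase subunit, rose by 0.29 with ETX, 0.29 in shCPT-1 and 0.31 in shCPT-2 (adjusted p = 0.00656, 0.0063 and 0.0032), and by 0.17, 0.16 and 0.16 with the actin covariate (adjusted p = 0.035, 0.0421 and 0.0421). MPC2, the other carrier subunit, rose by 0.74 with ETX (adjusted p = 0.00325), or 0.42 with the actin covariate (adjusted p = 0.0078). Its scramble arrays, at 9.45, 9.61 and 9.97, also ran opposite to the actin signal, its shCPT-1 difference of 0.48 (adjusted p = 0.0299) ended with the covariate (0.14, adjusted p = 0.283), and a second probe set, 227669_at, gave 0.00 with ETX. In the knockdowns 227669_at ran the other way, at -0.14 in shCPT-1 (adjusted p = 0.0891) and -0.49 in shCPT-2 (adjusted p = 5.35e-05). The brightest MPC2 probe set gave 0.31 in shCPT-2 (adjusted p = 0.130).

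Lipoate and thiamine genes supply the cofactors of the complex, and 7 of 11 were measured. ETX raised 2 of them (28.6%, against 21.9% of all genes) and lowered 1 (14.3% against 19.4%). shCPT-1 lowered 2 (28.6% against 18.0%) and raised none, where 23.1% of all genes were called higher. shCPT-2 raised 1 and lowered 1 (14.3% each, against 25.6% and 20.5%). With 7 genes, so few calls cannot tell the list apart from all genes. SLC19A2, a thiamine transporter, rose by 0.35 with ETX (limma, adjusted p = 7.86e-05) and by 0.37 in shCPT-2 (adjusted p = 1.95e-05). LIPT1, a lipoyltransferase, rose by 0.30 with ETX (adjusted p = 0.000698) and fell by 0.38 in shCPT-1 (adjusted p = 7.79e-05). GLRX5, an iron-sulfur cluster protein, fell by 0.55 in shCPT-2 (adjusted p = 5.97e-06).

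The sister complexes for other 2-oxoacids, with their own kinase and phosphatase, were all measured, 9 genes in all, of which 2 rose and 4 fell with ETX, 3 rose and 2 fell in shCPT-1, and 2 rose and 2 fell in shCPT-2. Of these the 4 that fell with ETX (44.4%, against 19.4% of all genes) stand furthest from the shares of all genes. PPM1K, the phosphatase of the branched-chain complex, rose by 0.43 with ETX (limma, adjusted p = 0.000426) and by 0.26 in shCPT-2 (adjusted p = 0.00749, 0.119 with the actin covariate). DHTKD1, the E1 of the 2-oxoadipate complex, fell by 0.46 with ETX (adjusted p = 0.000253), 0.30 in shCPT-1 (adjusted p = 0.0032, and by 0.19 with the actin covariate, adjusted p = 0.0243) and 0.40 in shCPT-2 (adjusted p = 0.000311). OGDH, the 2-oxoglutarate E1, fell by 0.33 with ETX (adjusted p = 0.00186).

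Transcription regulators known to act on PDK genes were measured for 18 of 21 listed. ETX raised 6 and lowered 3, shCPT-1 raised 2 and lowered 5, and shCPT-2 raised 2 and lowered 9. The 9 are 50.0% of the list, against 20.5% of all genes, with a median of -0.21, and the 6 raised with ETX (33.3% against 21.9%) and 5 lowered in shCPT-1 (27.8% against 18.0%) are nearer to the shares of all genes. HIF1A, the hypoxia factor subunit, read 12.71, 12.80 and 12.84 in scramble, 12.84, 12.83 and 12.74 with ETX, 12.94, 12.84 and 12.78 in shCPT-1 and 11.88, 11.50 and 11.62 in shCPT-2. It fell by 1.12 in shCPT-2 (limma, adjusted p = 5.06e-07), with all 3 arrays below the other 9, while differences of 0.02 with ETX and 0.07 in shCPT-1 did not pass.

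EPAS1, the HIF-2 alpha subunit, rose by 0.55 with ETX (limma, adjusted p = 0.000272) and by 0.29 in shCPT-1 (adjusted p = 0.0102, 0.0958 with the actin covariate) and fell by 0.95 in shCPT-2 (adjusted p = 1.3e-06). PPARGC1A, the PGC-1 alpha coactivator, rose by 0.57 with ETX (adjusted p = 4.24e-05). NR3C1, the glucocorticoid receptor, fell by 0.27 in shCPT-1 (adjusted p = 0.000687) and by 0.52 in shCPT-2 (adjusted p = 2.69e-06). MYC rose in all 3, by 1.20, 0.71 and 1.07 (adjusted p = 0.000325, 0.00699 and 0.000352). With the actin covariate the MYC differences were smaller, 0.83, 0.32 and 0.63, and still passed (adjusted p = 0.000176, 0.0249 and 0.000642), and the scramble arrays, at 10.06, 10.33 and 10.72, ran opposite to their actin signal of 2.25, 2.19 and 1.76.

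PPAR targets of fatty acid use, the group PDK4 belongs to, were measured for 16 of 22 listed genes, PDK4 not counted. ETX raised 9 (56.2%, against 21.9% of all genes) and lowered 1, with a median of 0.31 against -0.01 for all genes. shCPT-1 raised 4 and lowered 5 (31.2% against 18.0%), and shCPT-2 raised 4 and lowered 6 (37.5% against 20.5%). CPT1A, the CPT1 isoform followed here, is 1 of the 5 lowered in shCPT-1 (difference -1.59, limma, adjusted p = 1.97e-08). The shCPT-1 hairpin was directed at a CPT1 isoform that is not given, so that count may include the target of the hairpin itself. ANGPTL4, a lipase inhibitor, rose by 2.21 with ETX (limma, adjusted p = 4.25e-09), read -0.16 in shCPT-1 (adjusted p = 0.108) and fell by 0.53 in shCPT-2 (adjusted p = 8.73e-05). PLIN2, a lipid droplet coat protein, rose by 2.04 with ETX (adjusted p = 1.53e-08) and by 0.57 in shCPT-1 (adjusted p = 0.000134). SLC25A20, the carnitine-acylcarnitine carrier, rose by 1.22 with ETX (adjusted p = 5.49e-08), and its smaller rise of 0.21 in shCPT-2 (adjusted p = 0.00904) ended with the actin covariate (0.12, adjusted p = 0.125). VNN1, a pantetheinase, read 6.42, 6.47 and 5.91 in scramble, 4.46, 4.38 and 4.86 in shCPT-1 and 4.92, 4.86 and 4.81 in shCPT-2. It was called lower in both knockdowns (adjusted p = 2.18e-06 and 7.4e-06), but all 6 knockdown values and 1 scramble value lie under the array medians, so the size of the fall is uncertain.

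HIF-1 targets other than PDK1 were measured for 23 of 25 listed. shCPT-2 lowered 13 (56.5%, against 20.5% of all genes) and raised 3, with a median of -0.19. shCPT-1 raised 10 (43.5%, against 23.1% of all genes) and lowered 3, with a median of 0.14. ETX raised 4 and lowered 5, with a median of -0.07, near the shares of all genes. The difference between the knockdowns over this list was not tested. VEGFA, the vascular growth factor, fell by 2.30 in shCPT-2 (limma, adjusted p = 1.26e-08), and PFKFB4, a glycolytic regulator, by 1.30 (adjusted p = 3.8e-09). BNIP3, a mitophagy receptor, rose by 0.90 in shCPT-1 (adjusted p = 5.44e-08) and was 0.02 from scramble in shCPT-2 (adjusted p = 0.773). The list was not uniform, as LOX, a collagen crosslinker, rose by 1.16 in both knockdowns (adjusted p = 2.63e-09 and 1.86e-09), and ADM, a vasodilator peptide, fell by 1.39 in shCPT-1 (adjusted p = 5.5e-09).

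**Figure D4:**
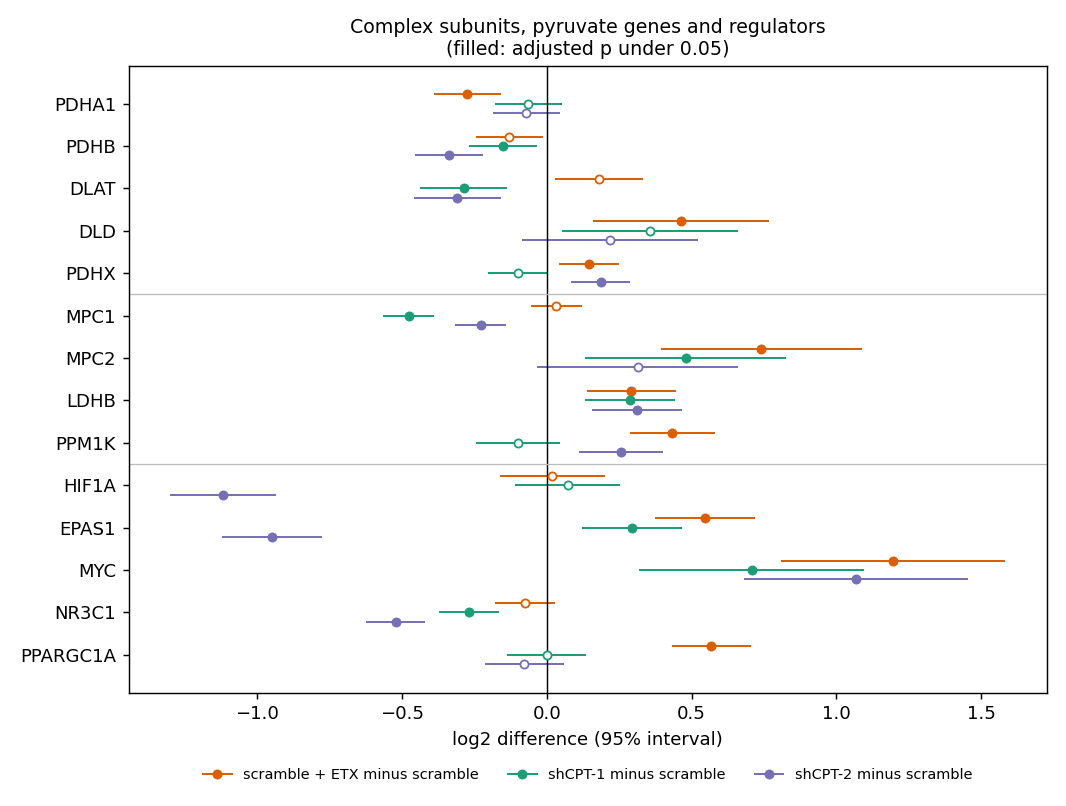
Log2 difference from scramble, with 95% intervals, for ETX, shCPT-1 and shCPT-2, with open points where the adjusted p was 0.05 or above. The genes are the subunits of the complex, then MPC1, MPC2, LDHB and PPM1K, then the regulators HIF1A, EPAS1, MYC, NR3C1 and PPARGC1A. MYC lies furthest above zero with ETX, at 1.20, and HIF1A lies lowest in shCPT-2, at -1.12.

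The tested genes whose log2 intensity ran closest to PDK4 were TMEM167B (Pearson r = 0.983), ANGPTL4 (0.981), RAB11B-AS1 (0.977), PTGS2 (0.977) and IL6 (0.974) over 12 arrays each. All 5 had their highest group mean with ETX. PDK4 itself stood far highest there, so ranking by r with PDK4 picks such genes and their ETX peak adds nothing further. PDK1 ran closest to ANTXR1 (0.976) and MFSD6 (0.971), PDK2 to PSMB8 (0.961) and TMEM9B (0.944), and PDK3 to HLA-DRB1 (0.980) and MIR3681HG (0.975). PDP1 ran closest to NDUFB11 (0.970) and CHST15 (0.952), and PDPR to KLHDC4 (0.982) and PSEN2 (0.979). Among the members, the highest r was between PDK1 and PDK3 (0.78) and the lowest between PDK2 and PDPR (-0.90). These arrays fall into 4 groups, so the values describe shared group levels and carry no p.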

How the data were processed

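Total RNA of 12 MDA231 samples was measured, per the labels, on single-colour Affymetrix arrays with a biotin label. The deposited intensity values run from 6.68 to 28791, are linear, give each probe set 1 value on each array, and were made by the authors with RMA, per the submitters' processing notes. The sources used here give no version, settings or genome build. Log2 of the deposited intensity was used, and 54675 probe sets were read.

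A probe set was kept when 3 or more arrays had it above the median (28628 kept, 23564 with 1 gene symbol). The kept probe set with the highest mean stood for a gene, giving 12886 tested genes. Groups were compared with limma 3.58.1 (lmFit, contrasts and eBayes) in R 4.3.3 over all 12 arrays, two-sided and with no covariate. The threshold for a call was 0.05 after Benjamini-Hochberg adjustment over all genes of a comparison. The code was tested on simulated data.

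Named genes were the members, the targeted genes, the subunits of the complex, up to 3 genes per list and comparison with the smallest adjusted p, and the genes most correlated with each member. Not all of them are described. The members and the 7 lists (109 genes, 89 tested) were chosen with earlier results of these data known. Symbols came from the platform annotation, and 41043 probe sets had a gene ID found in RefSeq. Same-numbered arrays did not deviate together (median r 0.045 over 18 pairs, lowest -0.456), so the numbers were not taken to pair them. Alternatives covered filters, probe set choice, normalization, spread, array weights, a replicate block, single arrays left out and, chosen after seeing the data, the actin 3′ minus 5′ signal as a covariate. Python 3.11.15, pandas 2.3.3, numpy 2.4.6, matplotlib 3.10.9 and the R package data.table (version 1.17.8) were also used.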

Additional observations from a re-analysis of the deposited data

Results flagged for a closer look

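In 4 members the means of shCPT-1 and shCPT-2 lay on opposite sides of the scramble mean and differed from each other. Among those tested, only PDK1 was called against scramble in both knockdowns. PDK3 in shCPT-1 (0.01, limma adjusted p = 0.868) and PDP1 in shCPT-2 (-0.09, adjusted p = 0.251) overlapped scramble and did not pass. The difference between shCPT-2 and shCPT-1 was tested for PDK1 (-0.77 on the log2 scale, limma adjusted p = 2.15e-06), PDK3 (-0.51, adjusted p = 7.53e-06) and PDP1 (-0.35, adjusted p = 0.0007). For PDK4 it was -1.11, every shCPT-1 array lying above and every shCPT-2 array below the scramble arrays, and this difference was not tested. The PDK4 values lie under the array medians in these groups.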

How the results depend on the processing

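Of 870 recomputed member differences, 811 kept their direction and their side of the threshold, 30 lost a call, 7 gained one, 1 moved and 21 changed sign. The members called in shCPT-1 (2), in shCPT-2 (4) and in shCPT-2 against shCPT-1 (5) gave those numbers with every single array left out, and numbers within 1.5 times of them under the other alternatives. For ETX the count of called members was 0 when probe sets were averaged per gene, 3 with array weights and 0 with the actin covariate, and 0 to 1 with single arrays left out, 0 being without the first ETX array. shCPT-1 against ETX gave 1 with the mean of probe sets and 2 to 4 with single arrays left out. Of the 89 listed genes, ETX called 46, or 30 without _s_at and _x_at probe sets, and shCPT-1 called 43, or 65 with array weights. With the mean of probe sets, ETX gave 0.0423 for PDK3 and 0.0512 for PDP1. For shCPT-1, PDK3 gave -0.00791 with quantile normalization, -0.0431 with array weights and -0.0248 with the actin covariate, which gave 0.00308 for PDPR with ETX. PDK4 in shCPT-1 gave 0.60 with array weights. On single probe sets, ETX gave -0.20 for PDK1 (239798_at), -0.00517 for PDK2 (213724_s_at), 0.26 (206348_s_at) and 0.13 (221957_at) for PDK3, and 0.19 for PDP1 (218273_s_at). shCPT-1 against ETX gave 0.00355 for PDK2 (213724_s_at), -0.11 (206348_s_at) and -0.0524 (221957_at) for PDK3, and -0.0824 for PDP1 (218273_s_at). shCPT-1 against scramble gave -0.0579 for PDK3 (230085_at) and -0.00617 for PDPR (224902_at). With single arrays left out, PDK3 in shCPT-1 ranged from -0.0301 to 0.0448, PDK2 in shCPT-1 from -0.0752 to 0.0164 and PDP1 in shCPT-2 against ETX from -0.0360 to 0.0450. With the replicate block, the pairing by number ended the PDK2 call in shCPT-1 against ETX (adjusted p = 0.0526) and changed no other member's call. The causes were not tested. PDK2 has no value without _s_at and _x_at probe sets. Signal over background limits PDK4 outside ETX, and 3 arrays a group limit the precision.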
